A study of Mus musculus with 6 samples.

Results

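The nuclear factor I genes Nfia, Nfib, Nfic and Nfix and the ETS factor gene Etv1 were examined in mouse medulloblastomas with and without Crebbp. The 5 genes were taken as a list of transcription factors of granule neuron maturation, and all 5 were among the 22180 genes measured. Where the array had several features for a gene, the feature with the highest mean over the 6 arrays was used. Values are log2 expression after RMA, a method that corrects background, brings arrays to a common scale and summarises probes, so that a difference of 1 is a doubling of signal.

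Activated Smoothened (SmoM2), which switches hedgehog signalling on without its ligand, drove these cerebellar tumours. In all animals Cre recombinase was under the control of Math1 (Atoh1), which is active in granule neuron progenitors, and SmoM2 was carried as 1 conditional allele (Math1Cre::SmoM2Fl/+, given as Math1CreERT2SmoM2 in the sample descriptions). The 3 wild type tumours had no conditional Crebbp allele listed, and the 3 knockout tumours carried Math1Cre::CrebbpFl/FlSmoM2Fl/+, so that the same recombinase removed Crebbp. Recombination was started in every animal with 1 mg tamoxifen at postnatal day 5, and collection followed at day 60. The protocol gives these days, while the age label gives postnatal day 5, which was read as the day of induction. Each tumour gave 1 array, and since separate animals or litters are not stated in the labels, p-values describe the spread among these arrays alone.

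NFI proteins bind DNA as dimers at a palindrome made of the core TTGGC and its reverse complement GCCAA. In the cerebellum they act late in granule neuron development, when cells that have left the cell cycle extend dendrites and switch on receptor genes such as Gabra6, and they also act in astrocyte development. ETV1, also called ER81, is an ETS factor of the PEA3 group, responds to ERK signalling and takes part in the switch to mature glutamate receptor genes such as Grin2c in granule neurons. CREBBP, the acetyltransferase that was deleted, is a coactivator for many transcription factors.

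Crebbp itself was measured at 11.80, 11.76 and 11.70 (log2) in wild type and at 11.24, 11.34 and 11.20 in knockout tumours. The groups did not overlap, the log2 change was -0.50 (SE 0.09), and the call over all genes was missed (limma adjusted p = 0.0948). Which exons were removed is not stated, and probes of the feature may lie outside them. Xist had a mean of 5.44 (log2) in wild type and one of 12.34 in knockout tumours, and 3 Y-linked genes had values of at least 9.32 in wild type and at most 5.49 in knockout tumours. Genotype and sex therefore cannot be told apart in any comparison here. The 12 values of these genes in the arrays that lacked them, from 4.31 to 5.74, served as the level of an absent transcript. Of all genes, 46 passed an adjusted p of 0.05, which is 0.207%.

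Promoter windows for 4 of the 5 factors and for the maturation genes Gabra6, Cbln3, Grin2c, Neurod1 and Ephb1 were read from RefSeq sequence (GRCm38.p6), each with 250 bases before and 50 after an annotated start. They were searched on both strands for the full NFI palindrome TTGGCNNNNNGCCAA, the NFI core TTGGC, the cAMP response element TGACGTCA, its core TGACG and the ETS site CCGGAAGT. The cores also lie within the full motifs. Among 32851 windows of the same length the full NFI palindrome was present in 0.0365%, the NFI core in 46.7%, the cAMP response element in 1.79%, its core in 20.8% and the ETS site in 3.89%. The following windows are shown because Nfic had the largest difference among the NFI genes, Etv1 the opposite sign, and Gabra6 and Cbln3 the largest differences among the maturation genes described further on. Capitals mark the NFI core, and each window runs 5′ to 3′ in the direction of transcription.
Nfic, chr10:81427124-81427423 (minus strand): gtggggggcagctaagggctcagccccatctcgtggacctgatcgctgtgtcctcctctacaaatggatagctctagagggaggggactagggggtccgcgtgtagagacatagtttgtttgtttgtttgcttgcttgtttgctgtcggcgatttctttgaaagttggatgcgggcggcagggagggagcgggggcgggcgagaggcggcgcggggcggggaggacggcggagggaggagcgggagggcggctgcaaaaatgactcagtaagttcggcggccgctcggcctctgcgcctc
Etv1, the downstream of 2 windows, chr12:38783461-38783760 (plus strand): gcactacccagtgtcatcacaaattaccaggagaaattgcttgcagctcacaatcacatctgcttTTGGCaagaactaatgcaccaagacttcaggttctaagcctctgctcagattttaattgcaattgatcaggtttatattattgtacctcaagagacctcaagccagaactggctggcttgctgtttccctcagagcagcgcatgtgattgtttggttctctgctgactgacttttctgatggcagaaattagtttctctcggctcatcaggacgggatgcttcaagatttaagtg
Gabra6, chr11:42321023-42321322 (minus strand): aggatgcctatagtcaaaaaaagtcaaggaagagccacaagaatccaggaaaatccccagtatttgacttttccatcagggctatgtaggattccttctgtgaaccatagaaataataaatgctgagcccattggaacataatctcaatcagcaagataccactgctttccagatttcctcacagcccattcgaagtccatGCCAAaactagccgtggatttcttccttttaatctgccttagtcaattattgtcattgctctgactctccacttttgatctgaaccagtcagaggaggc
Cbln3, chr14:55884207-55884506 (minus strand): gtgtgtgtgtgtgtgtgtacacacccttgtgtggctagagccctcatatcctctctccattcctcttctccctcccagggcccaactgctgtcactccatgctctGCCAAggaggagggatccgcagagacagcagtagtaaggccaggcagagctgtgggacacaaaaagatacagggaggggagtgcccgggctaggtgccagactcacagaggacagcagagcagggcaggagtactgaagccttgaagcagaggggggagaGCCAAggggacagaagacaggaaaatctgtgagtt

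The Nfic window held no match to any of the 5 motifs and had a GC content of 63.0%. The downstream Etv1 window held 1 NFI core on the plus strand, starting 185 bases before the annotated start, while the upstream Etv1 window held none. The Gabra6 window held 1 core on the opposite strand, 49 bases before the start. The Cbln3 window held 2 cores. The windows of Grin2c, Neurod1 and Ephb1 held no NFI core, and that of Ephb1 held the core TGACG 3 bases before the start. The full palindrome, the cAMP response element and the ETS site were in none of the windows read, those of Nfia and Nfix included, and 3 of the 4 Nfix windows held the NFI core. Because the core was in 46.7% of all windows, its presence does not set these genes apart.

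All 4 NFI genes had lower mean levels in knockout than in wild type tumours, by 0.12 to 0.71 on the log2 scale, and Etv1 had a higher one; 49.1% of all genes had a negative change. None of the 5 passed an adjusted p of 0.05 in limma, against 0.207% of all genes. Nfib, Nfic and Nfix had an unadjusted p under 0.05, each lower in knockout tumours, as were 6.51% of all genes (13.8% in both directions). In the 4 NFI genes every knockout array lay below every wild type array, a separation in that direction that 9.43% of all genes showed. With 3 arrays in each group an exact two-sided permutation test cannot go below p = 0.1, which these 4 genes reached. In whole tumours, fewer cells of a type and less RNA per cell cannot be told apart.

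**Figure D1:**
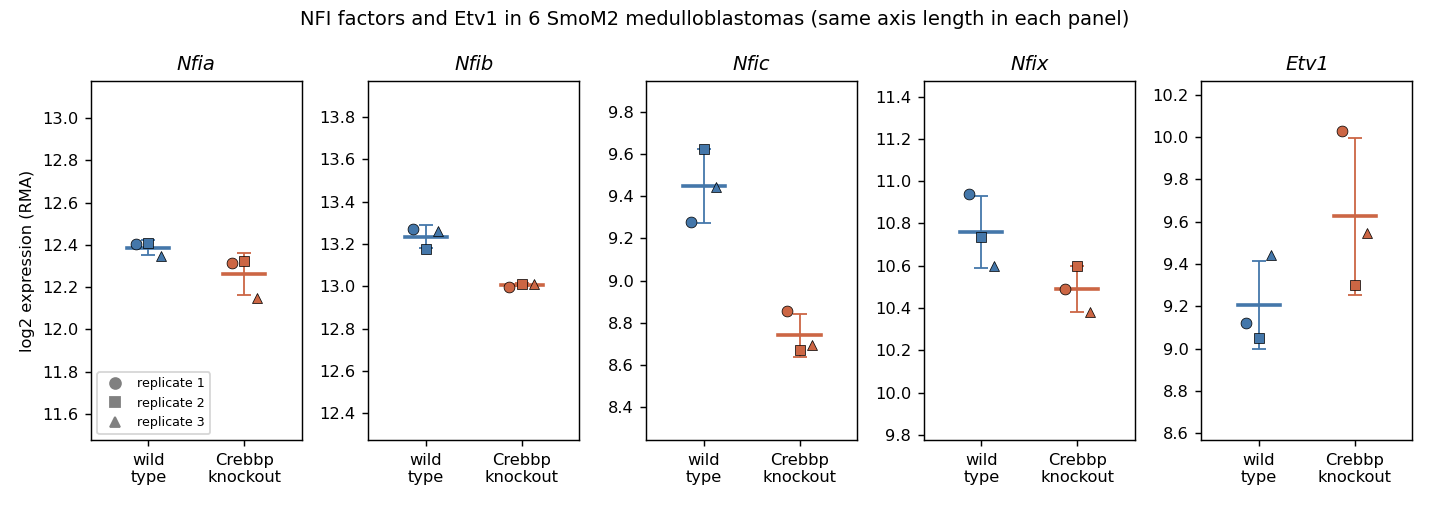
Log2 expression (RMA) of Nfia, Nfib, Nfic, Nfix and Etv1 in each array, with 3 wild type and 3 knockout tumours; symbols give the replicate number, bars the mean and whiskers the SD (n = 3). The knockout points lie below the wild type points for the 4 NFI genes, widest apart for Nfic and by 0.0025 for Nfix, and the groups overlap for Etv1.

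Nfic, known for its role in tooth root formation and expressed in many tissues, differed most. Its log2 levels were 9.28, 9.62 and 9.44 in wild type replicates 1, 2 and 3 and 8.86, 8.67 and 8.70 in knockout replicates 1, 2 and 3. The lowest wild type and the highest knockout value were 0.42 apart, more than the range within either group (0.35 and 0.19). The log2 change was -0.71 (SE 0.12, 95% interval -0.97 to -0.44), with 1.63 times as much signal in wild type. The gene, on chromosome 10, missed the call (limma adjusted p = 0.0802 over all genes). It passed when the dimmest 50% of genes were left out (adjusted p = 0.0492) and when limma's variance prior was allowed to follow the level (adjusted p = 0.0401). A change at least as low was found in 0.721% of all genes.

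Nfib, which in mice is needed for lung maturation and for forebrain commissures, had a small difference with little spread. Its log2 levels were 13.27, 13.17 and 13.26 in wild type and 12.998, 13.010 and 13.011 in knockout tumours. The 3 knockout arrays lay within 0.0122 of each other and 0.16 below the lowest wild type array. The log2 change was -0.23 (SE 0.08, 95% interval -0.42 to -0.04), and the gene did not pass over all genes (limma adjusted p = 0.294). The wild type level was 1.17 times that of the knockout.

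Nfix, which acts in fetal muscle and in neural stem cells, had log2 values of 10.94, 10.74 and 10.60 in wild type and 10.49, 10.60 and 10.38 in knockout tumours. Wild type replicate 3 and knockout replicate 2 had nearly equal values, 10.601 and 10.598, so the groups nearly touched. The log2 change was -0.27 (SE 0.12, 95% interval -0.54 to -0.00212, limma adjusted p = 0.359). Without wild type replicate 1, the highest array, it was -0.18. A second, dimmer feature of Nfix had log2 values of 7.54, 7.70 and 7.20 in wild type and 6.99, 6.80 and 6.76 in knockout tumours. That feature too had its knockout values below those of wild type, with a larger log2 change of -0.63 (SE 0.14), which did not pass over all named features (limma adjusted p = 0.123).

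Nfia, which starts the switch from making neurons to making glia in the developing spinal cord, differed least. Its log2 levels were 12.41, 12.41 and 12.35 in wild type and 12.32, 12.32 and 12.15 in knockout tumours. Knockout replicate 3 was the lowest array, and the other knockout arrays lay just under the wild type ones, with a gap of 0.0233 between the groups. The log2 change was -0.12 (SE 0.09, 95% interval -0.34 to 0.09, limma adjusted p = 0.592) and was -0.07 without knockout replicate 3. The interval allows a wild type level up to 1.26 times that of the knockout. Nfia and Nfib both lie on chromosome 4.

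Etv1 was the one gene of the 5 with a positive difference. Its log2 levels were 9.12, 9.05 and 9.44 in wild type and 10.03, 9.30 and 9.55 in knockout tumours. Knockout replicate 1 was the highest array, and knockout replicate 2 lay below wild type replicate 3, so the groups overlapped. The log2 change was 0.42 (SE 0.19, 95% interval -0.03 to 0.87, limma adjusted p = 0.392), and the exact permutation test gave p = 0.2. Without knockout replicate 1 it was 0.22 and without knockout replicate 2 it was 0.58. A dimmer feature of Etv1 had log2 values of 7.67, 7.54 and 8.43 in wild type and 8.54, 8.20 and 8.48 in knockout tumours, with a log2 change of 0.53 (SE 0.23, limma adjusted p = 0.343). In that feature too wild type replicate 3 lay above knockout replicate 2.

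**Figure D2:**
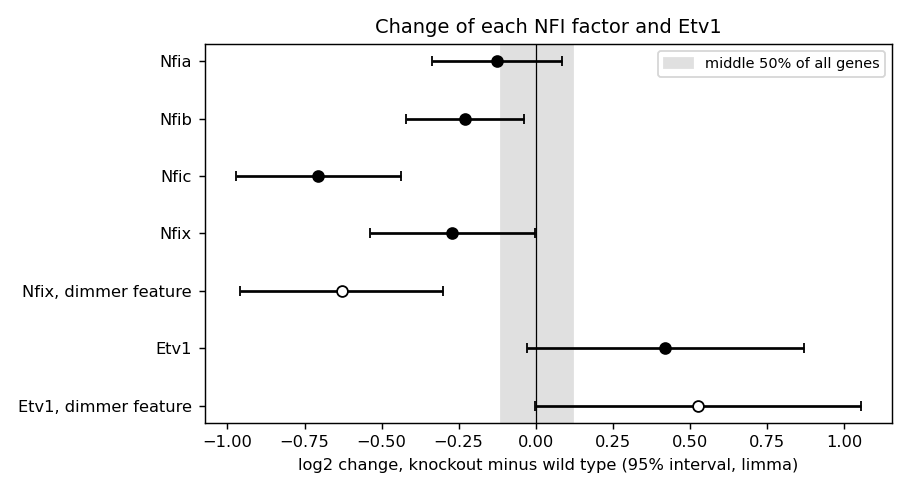
Log2 change (knockout minus wild type) with its 95% limma interval for each gene; filled points are the features used and open points the dimmer second features of Nfix and Etv1. The grey band, from -0.11 to 0.12, holds the middle of all genes (lower to upper quartile). The points of the 4 NFI genes lie left of the band, and Etv1 lies right of it with an interval that reaches -0.03.

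The genes were also compared with each other, as the difference between 2 genes' log2 changes over the same 6 arrays. Over 10 pairs, 3 had a 95% interval that left out 0, and each of these involved Nfic. The intervals were not adjusted over the 10 pairs, and these 3 use the same Nfic values, so they are not separate results. The change of Nfia exceeded that of Nfic by 0.58 (interval 0.24 to 0.92), and that of Nfib exceeded it by 0.48 (0.08 to 0.88). The change of Nfic minus that of Etv1 was -1.13 (interval -1.77 to -0.48). In these 3 pairs, and in Nfib against Etv1, the arrays of the groups did not overlap, but the exact two-sided permutation p was 0.1, the smallest possible, and 0.222 when adjusted over the 10 pairs. Nfib and Nfix differed by 0.04 (interval -0.28 to 0.36), a range wide enough to hold the whole change of either gene. Nfic and Nfix differed by -0.43 (interval -0.99 to 0.12), so a larger change of Nfic than of Nfix was not shown. With all features of a gene averaged, that difference was -0.26 (exact permutation p = 0.3). Nfia minus Nfix was then 0.33 and Nfix minus Etv1 was -0.92, each with an exact permutation p of 0.1.

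**Figure D3:**
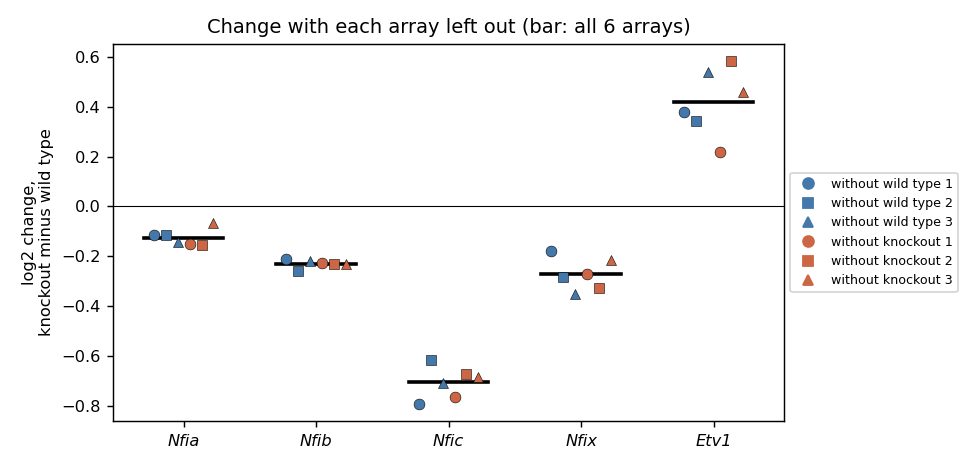
Log2 change of each gene with all 6 arrays (bar) and with each array left out (points, coloured by the group of the array left out). The sign is kept in every case; Nfic runs from -0.79 to -0.62 and Etv1 from 0.22 to 0.58.

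The genes whose centred values lay nearest to those of each factor over the 6 arrays were listed from 19392 genes, by the root mean square difference. For Nfic these were Igsf21, an immunoglobulin family adhesion gene (0.07), the adenylyl cyclase gene Adcy5 (0.08) and Epop, a Polycomb-associated gene (0.09), against a spread of Nfic about its own mean of 0.37. Igsf21 fell in knockout tumours, by 0.71 on the log2 scale (limma adjusted p = 0.0331), with levels of 10.36, 10.50 and 10.34 in wild type and 9.74, 9.66 and 9.67 in knockout tumours. For Etv1 they were the receptor phosphatase gene Ptprm (0.05), the potassium channel gene Kcnc4 (0.05) and Aspa (0.07), an oligodendrocyte enzyme, against a spread of 0.32. The arrays stood in the same order in Ptprm as in Etv1, from wild type replicate 2 (8.28) to knockout replicate 1 (9.26).

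For Nfix the nearest were Ppp1r3e (0.02), Dbn1 (0.02), which encodes the actin-binding protein drebrin, and Tnrc18 (0.03), against a spread of 0.18. For Nfib they were Cyp27a1, Exoc5 and Sec63 (0.03 each, against 0.12), and for Nfia they were Rnps1 (0.01), Hvcn1 (0.02) and Grik5 (0.02), a kainate receptor subunit gene, against 0.09. Of these 15 neighbours only Igsf21 passed the threshold over all genes. With so many genes and 6 arrays, close neighbours are found for any pattern.

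Among 22 granule neuron maturation genes, 12 were positive and 10 negative in log2 change, and the median was 0.10, against 0.0039 for all genes. None passed the threshold in limma (0.207% of all genes did), and 7 had an unadjusted p under 0.05, 6 of them higher and 1 lower in knockout tumours (7.24% and 6.51% of all genes). The 6 were Gabra6, Cbln3, Grin2c, Vsnl1, Kcnd2 and Gabrd, and the 1 was Neurod1. The list holds genes of early as well as late stages, so its median does not describe late genes alone. Gabra6, a GABA-A receptor subunit gene of mature granule neurons that NFI proteins are known to regulate, had log2 values of 5.33, 6.58 and 8.53 in wild type and 10.35, 7.74 and 10.49 in knockout tumours. Knockout replicates 1 and 3 were far above the rest, knockout replicate 2 lay below wild type replicate 3, and wild type replicate 1 was at the level of an absent transcript. The log2 change was 2.72 (SE 0.93, limma adjusted p = 0.275). Cbln3, a cerebellin of mature granule neurons, had levels of 6.80, 6.99 and 8.36 in wild type and 10.48, 8.17 and 10.38 in knockout tumours, a change of 2.29 (SE 0.65, adjusted p = 0.21), and again the groups overlapped in the same arrays.

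Grin2c, the glutamate receptor subunit gene in the maturation switch attributed to ETV1, had log2 values of 6.34, 6.58 and 6.93 in wild type and 7.89, 6.86 and 7.90 in knockout tumours (change 0.93, SE 0.29, limma adjusted p = 0.236). In Grin2c, Gabra6, Cbln3 and Vsnl1 knockout replicate 2 lay below wild type replicate 3, as it did in Etv1. Kcnd2, also of this list, did not have that order, with 9.44, 9.73 and 9.20 in wild type and 10.16, 9.75 and 10.32 in knockout tumours. Its groups lay 0.0188 apart, and its log2 change was 0.62 (SE 0.18, limma adjusted p = 0.223). Neurod1, a proneural factor of newly formed granule neurons, went the other way, with levels of 9.33, 9.58 and 8.64 in wild type and 8.10, 7.89 and 8.15 in knockout tumours. Its groups did not overlap, and the log2 change was -1.14 (SE 0.23, limma adjusted p = 0.121). The adhesion genes Cdh2 and Cntn2, which NFI proteins regulate in granule neurons, had changes of -0.13 and -0.12 (limma adjusted p = 0.517 and 0.772). The groups overlapped in Cntn2, while every knockout array of Cdh2 lay below every wild type array. The ephrin receptor gene Ephb1 had a change of 0.20 (adjusted p = 0.773). Of the 22 genes, 3 had all knockout arrays lower and 1 had all higher (9.43% and 10.2% of all genes). Bdnf and its receptor gene Ntrk2 had changes of 0.09 and -0.19, and Nfatc4, which restrains NFI target genes in immature neurons, one of 0.23 (SE 0.13). The median of this list was -0.04 without the dimmest 50% of genes, -0.07 without wild type replicate 3 and 0.18 without knockout replicate 2, and 0.06 both without knockout replicate 3 and with all features of a gene averaged.

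**Figure D4:**
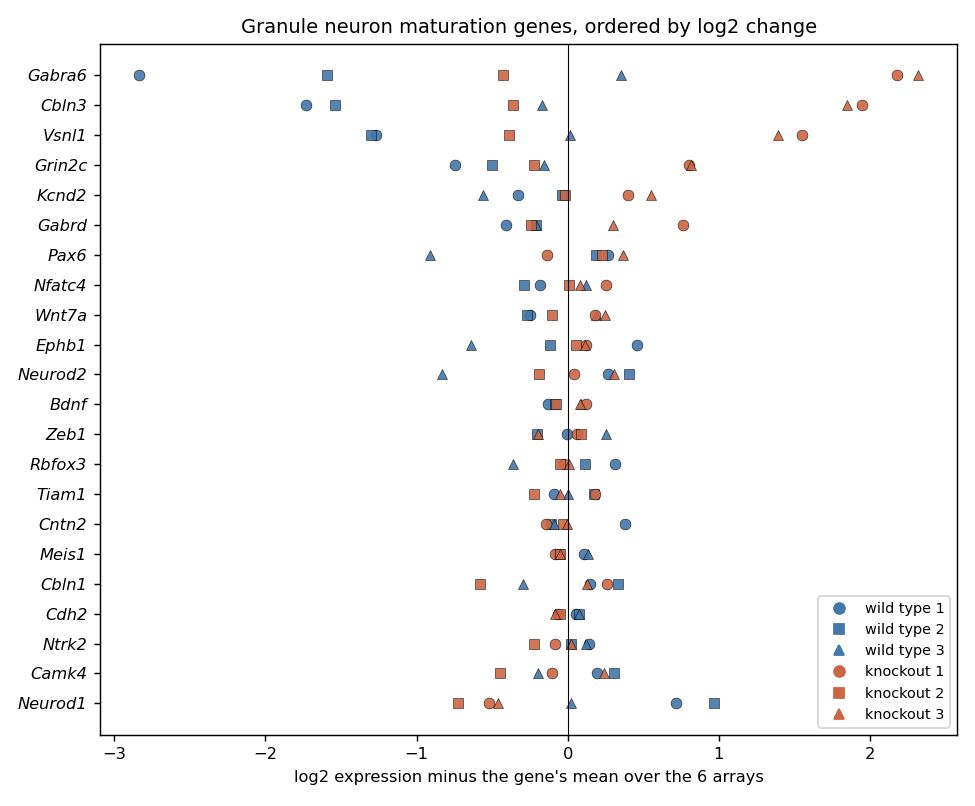
Log2 expression of 22 granule neuron maturation genes in each array, as the difference from the gene's mean over the 6 arrays; colours give the group and symbols the replicate. For Gabra6, Cbln3, Vsnl1 and Grin2c knockout replicates 1 and 3 stand to the right while knockout replicate 2 lies left of wild type replicate 3. For Kcnd2 all knockout arrays lie right of all wild type arrays, by 0.0188, and for Neurod1 all lie left of them.

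Of the 6 other ETV genes measured, 5 were negative and 1 positive in log2 change (median -0.07). None passed in limma, and 0 were under an unadjusted p of 0.05 (13.8% of all genes). With single arrays left out the median ran from -0.11 (without knockout replicate 2) to -0.0076 (without wild type replicate 3). Etv5, of the same PEA3 group as Etv1, had log2 values of 9.10, 9.31 and 8.40 in wild type and 9.34, 9.26 and 8.998 in knockout tumours (change 0.26, SE 0.23, limma adjusted p = 0.666). Etv6, a repressor of the ETS family, had a change of -0.16 (adjusted p = 0.671), and Etv4, the third PEA3 gene, one of -0.02 (SE 0.10). Among 9 genes of the ERK pathway, which controls PEA3 factors, 6 had negative and 3 positive changes, and the median was -0.06. None passed in limma, while 3 were under an unadjusted p of 0.05 (13.8% of all genes), 2 higher and 1 lower. With single arrays left out the median ran from -0.15 (without knockout replicate 1) to 0.04 (without wild type replicate 2). The receptor gene Fgfr1 had a change of 0.33 (SE 0.10, adjusted p = 0.229) and the ERK phosphatase gene Dusp6 one of 0.31 (SE 0.11, adjusted p = 0.291), both with the knockout arrays above all wild type arrays, as in 10.2% of all genes. Spred2, an ERK inhibitor, had a change of -0.26, with all knockout values below all wild type values.

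Of 9 genes reported as NFI targets in neural progenitors and glia, 5 were positive and 4 negative in log2 change (median 0.08). None passed in limma, while 2 were under an unadjusted p of 0.05 (13.8% of all genes), 1 in each direction. The median was 0.0262 without the dimmest 50% of genes, -0.0148 when knockout replicate 1 was left out and 0.18 when replicate 3 was. Hes1, a Notch effector that NFI proteins repress in progenitors, had levels of 8.16, 8.32 and 8.04 in wild type and 9.09, 8.64 and 8.35 in knockout tumours (change 0.52, SE 0.18, limma adjusted p = 0.288). Ezh2, the Polycomb methyltransferase gene that NFIB represses in cortex, had levels of 11.65, 11.59 and 11.50 in wild type and 11.22, 11.46 and 11.07 in knockout tumours (change -0.33, SE 0.12, adjusted p = 0.294). These repressed targets thus had changes of opposite sign, and neither was past the threshold. Gfap, an astrocyte gene that NFIA activates, had a change of 0.44 (SE 0.30) with overlapping groups. Gfap and Sox9 of this list are also among the astrocyte and Bergmann glia markers described further on, so the lists are not separate.

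Cell type markers were examined because NFI genes are expressed in glia as well as in granule cells. Atoh1, the defining factor of granule neuron progenitors, was at 10.93 or more in every array. Of 13 progenitor markers, 10 had negative and 3 positive log2 changes (median -0.32), with mean list levels of 11.16 to 11.31 in wild type and 10.99 to 11.16 in knockout tumours. None passed in limma, while 11 were under an unadjusted p of 0.05 (13.8% of all genes), 8 lower and 3 higher. In 8 of the 13 every knockout array was lower than every wild type array (9.43% of all genes), and in 3, Gli1, Ptch1 and Hhip, every one was higher (10.2% of all genes). Ccnd2, a cyclin of cycling progenitors, had a change of -0.69 (SE 0.12, limma adjusted p = 0.0948), close in size to that of Nfic, and the hedgehog target Hhip one of 1.46 (SE 0.22, adjusted p = 0.0635). The part of progenitor content in the NFI values was not tested.

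Of 14 astrocyte and Bergmann glia markers, 11 were positive in log2 change (median 0.42). With single arrays left out the median lay between 0.23 (wild type replicate 2) and 0.70 (wild type replicate 3). Their mean level was 9.33, 9.27 and 10.05 in wild type and 10.11, 9.91 and 9.99 in knockout tumours, so wild type replicate 3 lay with the knockout arrays. Aldoc and Gja1 had changes of 1.47 (SE 0.41, limma adjusted p = 0.201) and 1.496 (SE 0.48, adjusted p = 0.243), 4 markers had an unadjusted p under 0.05, each higher (7.24% of all genes), and no marker passed or was at the level of an absent transcript. The part of these cells in the NFI values was not tested. In 10 measured Purkinje cell and interneuron markers, 9 had positive changes (median 0.45), and mean levels were 6.60, 6.95 and 7.18 in wild type and 7.73, 7.13 and 7.68 in knockout tumours. Knockout replicates 1 and 3 were highest and knockout replicate 2 lay below wild type replicate 3, as in Etv1, Gabra6 and Cbln3. Gad1, which makes GABA, had a change of 0.47 (SE 0.11, limma adjusted p = 0.152). Lhx1 had the only negative change, -0.49 (SE 0.11, adjusted p = 0.142). The largest change was that of Calb1, 2.42 (SE 0.80, adjusted p = 0.262) with overlapping groups, and Car8 and Pvalb had changes of 1.16 and 1.14. None of this list passed, and 7 of the 10 had an unadjusted p under 0.05 (13.8% of all genes), 6 higher and 1 lower. The median was 1.15 over the 4 markers left without the dimmest 50% of genes. Of the 9 positive changes, those of Pax2, Lhx5 and Skor2 were only 0.04, 0.04 and 0.07 (limma adjusted p from 0.812 to 0.931). Skor2 was at the level of an absent transcript in all arrays, and Lhx5, at 5.34 to 5.89, lay near it. The part of these cells in the values of Etv1 and of the maturation genes was not tested.

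**Figure D5:**
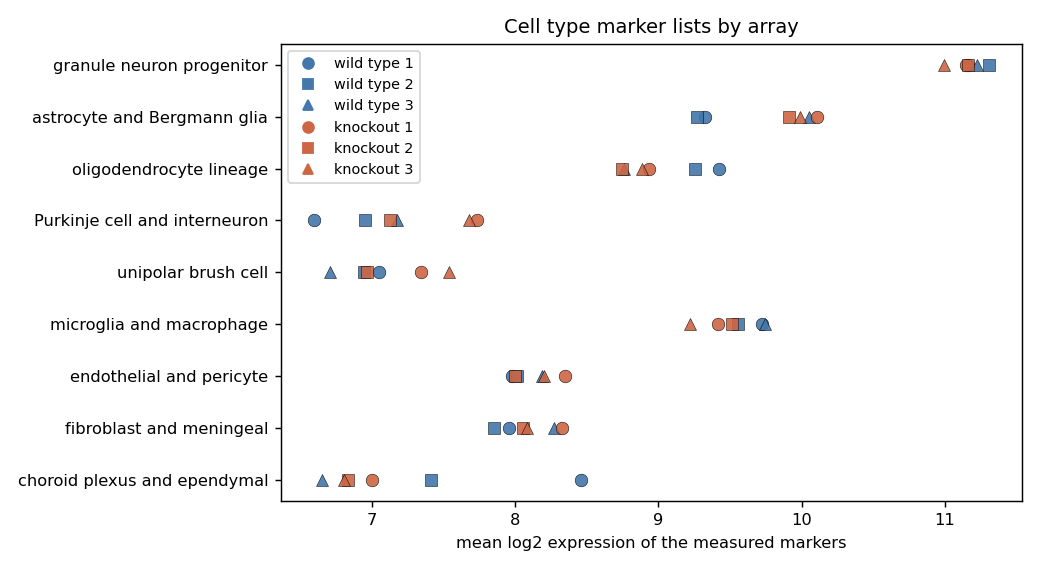
Mean log2 expression of each cell type marker list in each array; colours give the group and symbols the replicate. Wild type replicates 1 and 2 are lowest in astrocyte and Bergmann glia markers (9.33 and 9.27), knockout replicates 1 and 3 highest in Purkinje cell and interneuron markers (7.73 and 7.68), and wild type replicate 1 highest in choroid plexus and ependymal markers (8.46).

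Of the 9 oligodendrocyte lineage markers measured, 8 had negative log2 changes (median -0.32), with list levels from 8.76 to 9.42 in wild type and from 8.74 to 8.94 in knockout tumours. Pdgfra and Sox10 had changes of -0.45 (SE 0.13, limma adjusted p = 0.207) and -0.69 (SE 0.23, adjusted p = 0.258). Olig1, Olig2 and Cspg4 had changes of -0.43, -0.41 and -0.32. The myelin genes Mbp, Mag, Mog and Cnp differed less, by -0.16, -0.06, 0.06 and -0.17 (limma adjusted p from 0.769 to 0.972). Of 10 microglia and macrophage markers 9 had negative changes (median -0.33), with list levels from 9.55 to 9.74 and from 9.22 to 9.52, led by Ctss at -0.57 (SE 0.11, adjusted p = 0.121) and C1qc at -0.47 (SE 0.12, adjusted p = 0.184). None of these markers passed, and 4 oligodendrocyte and 6 microglia markers had an unadjusted p under 0.05, each lower in knockout tumours (6.51% of all genes). Every knockout array lay below every wild type array in 1 of the 9 oligodendrocyte and 5 of the 10 microglia markers (9.43% of all genes). Both lists were lower in knockout tumours in the median, and their part in the NFI values was not tested.

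The 3 measured unipolar brush cell markers had positive changes, with a median of 0.33 that was 0.10 when knockout replicate 3 was left out, 0.21 when replicate 1 was and 0.68 when replicate 2 was. In this list Eomes had a change of 0.77 (SE 0.22, limma adjusted p = 0.213) and Calb2 one of 0.33. The 8 endothelial and pericyte markers gave a median of 0.07, with Tek at 0.50 and Kdr at 0.28, and the 6 fibroblast and meningeal markers one of 0.13, with Lum at 0.56 and Foxc1 at -0.45. With single arrays left out these medians ran from -0.03 (without knockout replicate 1) to 0.23 (without knockout replicate 2) and from 0.05 (without wild type replicate 1) to 0.30 (without wild type replicate 3). The 4 choroid plexus and ependymal markers measured gave a median of -0.21, which was 0.04 without wild type replicate 1 and about -0.34 without either of the other wild type arrays. Without the dimmest 50% of genes only Ttr was left, at -2.43. Ttr, the choroid plexus transthyretin gene, had levels of 13.52, 10.80 and 8.10 in wild type and 8.71, 8.49 and 7.92 in knockout tumours, so that wild type replicates 1 and 2 stood apart. Tmem212 had a change of 0.33 at the level of an absent transcript. None of the markers in these 4 lists passed in limma, while 1 of 3, 2 of 8, 2 of 6 and 1 of 4 were under an unadjusted p of 0.05 (13.8% of all genes). The 1 of 4 was Tmem212, at the level of an absent transcript.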

How the data were processed

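RNA from 6 mouse medulloblastomas was hybridised to Affymetrix whole-transcript arrays. The submitters' processing notes name RMA and oligo for the log2 values that the authors deposited, with no versions or genome build stated. RMA compresses changes of dim genes and removes a change shared by most genes. The deposited table held 41345 features, with array medians from 6.91 to 7.00, and no detection calls. The platform annotation named 23521 features with 1 gene symbol, 1814 with several and 16010 with none here; the brightest feature per gene was kept, which gave 22180 genes with no filter on level.

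The deposited log2 values entered lmFit and eBayes (limma 3.58.1, R 4.3.3; two-sided, no covariate), with Benjamini-Hochberg adjustment over all genes at 0.05, and the fit was tested on simulated data. Changes are knockout minus wild type. Exact permutation tests used scipy 1.17.1, and intervals of differences between genes used the pooled SD with 4 degrees of freedom. The genes and lists were chosen with earlier results of these data known. Named were the 5 factors, Crebbp, of each list the genes past the threshold or else the 2 with the smallest p, and the 3 nearest genes per factor (predicted genes left out); other names were chosen after their values were seen. The number of arrays limits the precision. Scaling, dim genes, variance model, array weights, features, a replicate block and single arrays were varied.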

Additional observations from a re-analysis of the deposited data

How the results depend on the processing

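The 5 factors kept their sign in all 14 alternatives each. Nfic, with an unchanged log2 change of -0.71, passed the threshold without the dimmest 50% of genes (limma adjusted p = 0.0492) and with a variance trend (0.0401), and its adjusted p ran from 0.0401 to 0.258 over all alternatives. The other 4 factors passed under none, with lowest adjusted p-values of 0.401 (Nfia), 0.109 (Nfib), 0.173 (Nfix) and 0.262 (Etv1). With single arrays left out, the log2 changes ran from -0.16 to -0.07 for Nfia, -0.26 to -0.21 for Nfib, -0.79 to -0.62 for Nfic, -0.35 to -0.18 for Nfix and 0.22 to 0.58 for Etv1. The change of Nfix was -0.45 with all features of a gene averaged (limma adjusted p = 0.173). The 46 genes past the threshold became 107 with a variance trend and between 4 and 128 with single arrays left out. With a replicate block the count was 12, and no factor passed (Nfic limma adjusted p = 0.151). Same-numbered arrays had correlations of deviations of -0.03, 0.05 and 0.10. These gave no sign that the numbers pair the samples, and the labels do not state whether they do. The cause of these shifts was not tested. The difference between Nfib and Nfix changed sign, to -0.0302 without wild type replicate 1 and -0.0151 without knockout replicate 3, in a range up to 0.133 with single arrays left out, against 0.0415 with all arrays. Of 117 recomputed list medians, 8 moved by more than the spread between replicates and 7 changed sign. Dim genes can be judged only against absent sex-linked transcripts.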
